A study of Rattus norvegicus with 8 samples.

Results

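Rat genes for voltage-gated sodium, calcium and potassium channels were taken from 2 deposited comparison tables as the identifiers whose symbol has the form Scn, Cacna1, Cacna2d, Cacnb or Kcn followed by its member letter or number. The rule found 104 of 26405 identifiers in each table. It is wider than its name. The 14 inward rectifier genes (Kcnj) and 13 two-pore genes (Kcnk) code for potassium channels without a voltage sensor, the auxiliary subunits form no pore, and Scn7a codes for a sodium channel that is known to open with external sodium rather than with voltage. A further 22 identifiers, among them those of Cacna1a, Cacna1b, Kcnq3, Scn1a and Scn8a, carry a channel name only through RefSeq and enter the axonal, dendritic, glial and non-brain lists but not the 104. Scn2a was not analysed here.

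The 8 samples came from embryonic rat hippocampal neurons kept for 10 to 14 days in microfluidic chambers, in which axons grow into a compartment of their own. The 4 groups, with 2 samples each, were axons with Abeta, axons with vehicle, soma with Abeta and soma with vehicle. In all of them only the axons had been exposed for 24 h, to amyloid Abeta(1-42) in soluble oligomeric form or to vehicle, and the soma samples held the cell bodies with the neurites around them. The labels do not tie the duplicates to separate cultures. A p-value here thus reflects only how far these libraries vary, which may be technical. The tables do not name the numerator of their fold changes. Each difference is therefore given by its deposited sign, and neither the positive nor the negative side is called Abeta or vehicle.

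Each table gives a mean normalized count over 4 libraries and no column per library, but the reads of each library could be recovered from the digits of the means. The recovered libraries are named by their side. They cannot be tied to a sample and enter no test. Axonal libraries held 199041 to 379862 recovered reads, and soma libraries 2021009 and 200136 (positive side), against 2714368 and 219106 (negative side), so each soma side had 1 shallow and 1 deep library. Neuronal markers had reads for all 7 of 10 that carried a symbol, in axons and in soma. Astrocyte markers also had reads in both compartments (8 of 8). Their means summed to 1556 in axons and 7553 in soma, against 489 and 3285 for the 7 neuronal markers. The means of 7 fibroblast markers summed to 489 in axons and 258 in soma. RNA of either compartment is therefore not taken as that of neurons alone. These sums are not divided by transcript length, and the share of each cell type was not tested.

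Sodium channels carry the upstroke of the action potential, and their alpha subunits are concentrated at the axon initial segment. Potassium channels end the spike and set the resting potential, with Kcna members known from axons and Kcnd and Kcnb members from dendrites and cell bodies. Calcium channels couple the spike to transmitter release at terminals and to plateau and rebound potentials in dendrites, and astrocytes use inward rectifiers such as Kcnj10 to clear potassium. In hippocampal neurons the place of a channel protein is well studied, while the place of its mRNA need not be the same.

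All 104 channel genes had reads in axonal RNA, with mean normalized counts of 0.391 to 56.5 and a median of 8.44. In soma RNA 98 had reads, with a median of 11.8 and a highest mean of 243, and Kcne1, Kcnh6, Kcnj15, Kcnj8, Kcnk16 and Kcnmb1 had none. A mean of at least 10 was reached by 48 channel genes in axons and 55 in soma. Counts are not divided by transcript length, so levels of different genes are not ranked against each other.

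The first comparison asks which channel transcripts were relatively more or less abundant in axonal than in soma RNA. A gene's share of the summed means in axons was divided by its share in soma, and the log2 of that ratio is given relative to the median of 11157 genes with a soma mean of at least 10 and axonal reads. The tables were normalized separately, so these relative levels are descriptions without a test. Channel genes that reached this soma mean lay high. Of 55 with a soma mean of at least 10, 38 were above the median of all genes, and their own median relative level was 0.49 on the log2 scale, against quartiles of -0.59 and 0.65 over all genes. Among soma means of 10 to 50 the median relative level was 0.78 for 41 channels and 0.32 for 5930 genes, and among soma means of 100 to 300 it was -0.18 for 9 channels and -0.45 for 2072 genes. Under the minimum, among soma means of 1 to 10, channels did not lie higher, with 1.71 for 28 channels and 1.84 for 3944 genes.

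Kcng4, an electrically silent subunit that changes the gating of Kcnb channels, had the highest relative level, 3.19. It was followed by Cacna2d2 (2.44), an auxiliary subunit that brings calcium channels to the membrane, and by Scn7a (2.15). The next were Kcnh8 (1.86), a delayed potassium channel, the T-type calcium channel Cacna1i (1.81), the astrocyte rectifier Kcnj10 (1.65), Kcnh7 of the ether-a-go-go group (1.40) and the mechanically gated leak channel Kcnk2 (1.38). Some of these levels rested on 1 side. Scn7a had relative levels of 2.93 and 2.99 in the positive-side axonal libraries, against 0.23 and -0.22 in the negative-side ones. Kcnh8 had 0.03 and -0.04 in positive-side axons, against 3.12 and 2.46 in negative-side axons. Kcng4 was high on both sides, with 2.34 and 1.85 against 4.05 and 3.88. Others were uneven between libraries of a side. Cacna2d2 had 2.58 and -0.19 in positive-side axons, against 2.97 and 3.17 in negative-side axons. In the same order Kcnh7 had 0.16 and 1.10 against 2.58 and 1.14, and Kcnk2 had 1.34 and 1.69 against -0.34 and 2.11. These 8 genes hold members known from dendrites and from glia as well as auxiliary subunits, and none of the axonal list.

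The lowest relative level was that of Scn3a (-1.39), the sodium channel that predominates before birth. Cacna2d3 (-1.32), the large-conductance channel gene Kcnma1 (-0.98) and its neuronal beta subunit Kcnmb4 (-1.06) were also low, as were Kcna4 (-0.76), Kcnt2 (-0.72), Kcnd2 (-0.45) and Kcnk1 (-0.43). Kcna4, Kcnma1 and Kcnmb4 are in the axonal list, since their proteins are known from axons and terminals. Kcnk3, an acid-sensitive leak channel, lay just under the soma minimum, with means of 47.1 in axons and 9.12 in soma.

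**Figure D1:**
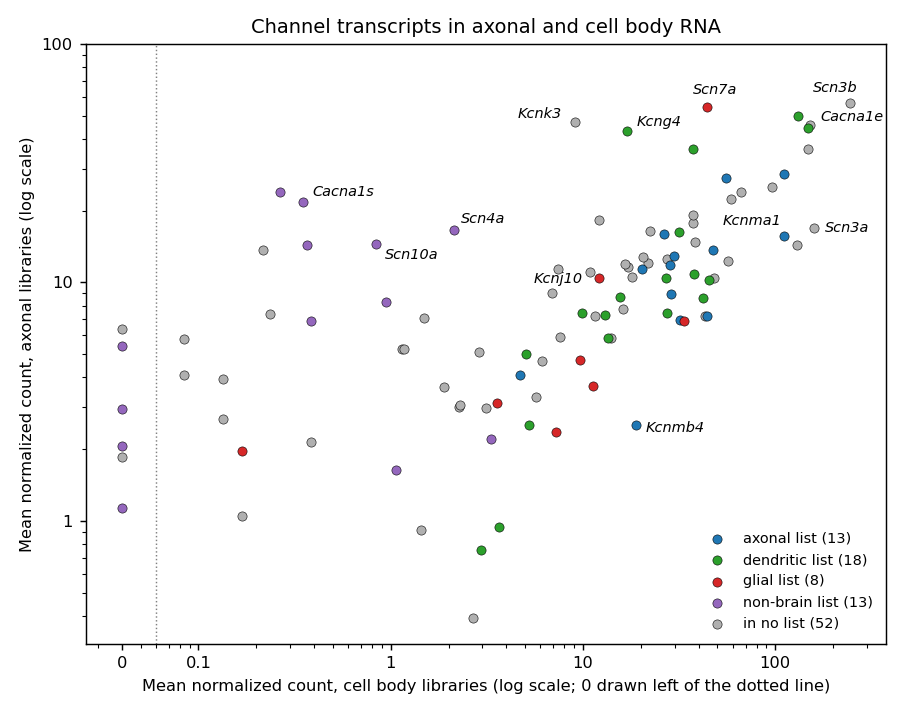
Each point is 1 of the 104 channel genes, with its mean normalized count over 4 soma libraries on the horizontal axis and over 4 axonal libraries on the vertical axis, both on log scales, coloured by list. Genes with a soma mean of 0 are drawn left of the dotted line. Cacna1s and Scn10a of the non-brain list lie far left, with soma means under 1 and axonal means above 10.

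Axonal, dendritic and glial channels were compared by relative level. The median relative level was 0.19 for the axonal list (18 genes with a soma mean of at least 10, SD 0.28 over the 4 axonal libraries), 0.29 for the dendritic list (18 genes, SD 0.58) and 0.94 for the glial list (4 genes, SD 0.74). These medians pool sides that differed, and the SDs include that difference. Taken library by library, leaving out genes with no read there, the axonal list had 0.08 and -0.13 in positive-side axons, against 0.53 and 0.07 in negative-side axons. The dendritic list had -0.36 and 0.13 against 0.73 and 0.93, and the glial list 1.79 and 1.28 against 0.58 and 0.11. On these values the glial list was highest in both positive-side libraries and the dendritic list in both negative-side ones. However, Kcnk13 had 0 reads in both positive-side libraries and was left out of the glial list there. The positive-side glial values are those of Kcnj10 (1.79 and 1.28), the middle gene of those left. The glial values of the sides thus rest on different genes, and the glial SD includes this. With every gene that had any read in both tables, the axonal value was -0.41, the dendritic one -0.17 and the glial one 1.01. The all-gene median was taken anew in this setting. The axonal list went from 18 to 19 genes with Scn4b, which had 1.65 on the scale above. The lower axonal value thus comes from the changed all-gene median and not from the list. The dendritic value was 0.0625 and 0.00697 without the deep soma library of the positive and of the negative side. Within the axonal list Cacna1a, the P/Q-type channel of presynaptic terminals, had 1.03, while Kcna2, the potassium channel beside nodes, had 0.06 and Kcna6 had -0.10. Within the dendritic list Kcnd3, which carries A-type current, had 0.91 and Cacna1c, the L-type channel, 0.13. The glial value rests on Scn7a (2.15), Kcnj10 (1.65), Kcnk13 (0.23) and Kcnk1 (-0.43).

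The non-brain list, of channels best known from muscle, heart, kidney, testis or sensory ganglia, had axonal reads for every identifier and few soma reads. Of its 18 identifiers 15 had a soma mean under 1. Cacna1s, the voltage sensor of skeletal muscle, had means of 21.8 in axons and 0.351 in soma, and Scn4a, the skeletal muscle sodium channel, had 16.5 and 2.13. Scn10a and Scn11a, sodium channels of pain-sensing neurons, had axonal means of 14.5 and 14.4 and soma means of 0.842 and 0.369.

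Reads of this kind were not particular to the list, since 5473 identifiers had reads in axons and none in soma. Among 21 channels by the rule with a soma mean under 1, the median axonal mean was 5.40, and 5 (23.8%) reached 10. Among 5276 genes with a symbol, axonal reads and a soma mean under 1, the median axonal mean was 1.99, and 3.20% reached 10. The normalized counts of the 5276 genes summed to 13076 and 6165 in positive-side axons, against 23886 and 20287 in negative-side axons, and those of the non-brain list to 111 and 48.5 against 193 and 200, both lower on the positive side without overlap.

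The second comparison asks which channel transcripts of the axons differed between treatments. Scn7a was the only channel gene that passed an adjusted p of 0.05 in the authors' deposited table, among 5 channel genes that were given one. The background was 304 of 1321 identifiers (23.0%), with 8.78% of the 1321 positive and 14.2% negative, so 1 of 5 was near the background. DESeq2 gave an adjusted p only at means of at least 44.8, so the other channel genes had a p-value without adjustment.

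Scn7a (ENSRNOG00000029342) had 92.2 and 104 normalized counts on the positive side of the axonal comparison, from 122 and 133 reads, against 12.6 and 9.45 on the negative side, from 12 and 7 reads. Both positive-side libraries were far above both negative-side ones. The deposited log2 fold change was 2.85 ± 0.61 (SE), 7.21-fold, with an adjusted p of 0.000193 from DESeq2. In soma the same gene had 66.0 and 20.2 normalized counts on the positive side, against 75.6 and 15.6 on the negative side, a log2 fold change of -0.06 ± 0.57 (SE). The soma sides overlapped, and the libraries paired by depth instead.

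Astrocyte markers were higher on the positive side together with Scn7a, and fibroblast markers were so only in part. The 7 astrocyte markers with recovered reads summed to 1050 and 1192 normalized counts in positive-side axons, against 243 and 448 in negative-side axons, all 8 measured markers had a fold change above 0, and 5 passed the authors' adjusted p on the positive side. The 7 fibroblast markers summed to 624 and 980 against 169 and 182, but 3 passed on the positive side while the other 4 lay below 0, and the median log2 fold change of the list was -0.05. No marker of either list was at 0. Their part in the Scn7a result was not tested, and in RNA of a whole compartment a change in the number of cells cannot be told apart from a change in RNA per cell.

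The promoters of the 3 channel genes that showed the widest axonal differences at means above 40 are given from RefSeq, build GRCr8, as the 250 bases before the first annotated start, 5′ to 3′ on the gene's strand. Capitals mark a match to GGGCGG, searched on both strands, which here lies on the opposite strand. The Scn7a window is chr3:71846285-71846534, the Kcng4 window chr19:64597889-64598138 and the Cacna1e window chr13:69444811-69445060, all on the minus strand.
Scn7a: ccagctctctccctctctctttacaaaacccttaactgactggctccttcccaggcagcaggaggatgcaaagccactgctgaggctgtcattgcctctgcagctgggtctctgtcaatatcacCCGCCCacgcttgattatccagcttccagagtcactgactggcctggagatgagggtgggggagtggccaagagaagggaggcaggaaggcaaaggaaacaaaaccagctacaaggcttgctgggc
Kcng4: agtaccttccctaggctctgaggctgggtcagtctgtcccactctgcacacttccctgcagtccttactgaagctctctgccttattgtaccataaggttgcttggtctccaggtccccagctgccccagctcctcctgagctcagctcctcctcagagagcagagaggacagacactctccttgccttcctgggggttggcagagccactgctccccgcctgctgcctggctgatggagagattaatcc
Cacna1e: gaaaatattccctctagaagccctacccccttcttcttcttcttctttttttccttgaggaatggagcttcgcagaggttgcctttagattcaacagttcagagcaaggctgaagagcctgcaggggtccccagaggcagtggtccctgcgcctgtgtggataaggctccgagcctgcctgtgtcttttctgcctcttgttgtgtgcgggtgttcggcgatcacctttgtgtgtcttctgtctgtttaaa
The window of Scn7a holds 1 such match and the other two hold none. None of the 3 holds the TATA box letters TATAAA, the letters CCAAT or the cyclic AMP element TGACGTCA on either strand. GGGCGG was found in 49.3% of 71 channel promoters with an entry and in 32.4% of 27457 promoters of all genes, and TATAAA in 2.82% and 13.1%.

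Without adjustment, 9 of 104 channel genes (8.65%) had a p under 0.05 in the axonal table, against a background of 4.45% of 23879 identifiers. On the positive side there were 2 channel genes, against a background of 1.86%, and on the negative side 7, against 2.59%. The 2 sets differ in abundance, since 48 of the 104 channel genes and 8032 of the 23879 identifiers had an axonal mean of at least 10. Shares at like means are not given here. Apart from Scn7a, none of the 9 passed an adjusted p, so values of those named are given without calling them changed.

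Cacna1e (ENSRNOG00000002863), the R-type calcium channel, had 21.9 and 23.5 normalized counts in positive-side axons and 66.2 and 71.6 in negative-side axons. Its log2 fold change was -1.46 ± 0.60 (SE), and the authors' adjusted p of 0.0583 from DESeq2 missed the threshold. It passed when fold changes were centred on genes with a soma mean of at least 100, whose axonal log2 fold changes had a median of 0.44 (2683 genes): the centred value was -1.90, with an adjusted p of 0.00777 over the same 1321 identifiers. Kcng4 (ENSRNOG00000015746) had 23.4 and 18.0 against 68.3 and 62.1, also without overlap, and a log2 fold change of -1.50 ± 0.61 (SE, p = 0.0139 unadjusted in the authors' deposited table).

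Other negative-side genes were lower in count. Scn4a had 8.31 and 3.13 normalized counts on the positive side, against 35.7 and 18.9 on the negative side (log2 fold change -1.81), and Kcnh8 had 3.02 and 3.13 against 23.1 and 14.9 (-1.98). Both had separate sides, and in Scn4a they lay in the direction of the summed counts of genes nearly without soma reads.

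Kcns2, a silent subunit like Kcng4, had 1 read over both positive-side libraries and 17 over both negative-side ones, a depth-corrected ratio of 0.0383 with a 95% Clopper-Pearson counting interval of 0.000916 to 0.244. Kcnk13, a two-pore channel known from microglia, had none in the positive-side libraries and 5.25 and 9.45 normalized counts in the negative-side ones, which is at least 3.19-fold lower when 3 reads per library are taken as the floor. Intervals and floors cover counting error only. The 9 microglial markers summed to 73.3 and 29.0 in positive-side axons and 112 and 193 in negative-side axons, 8 of the 9 lay below 0 and none passed an adjusted p. Their part in the Kcnk13 values was not tested.

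**Figure D2:**
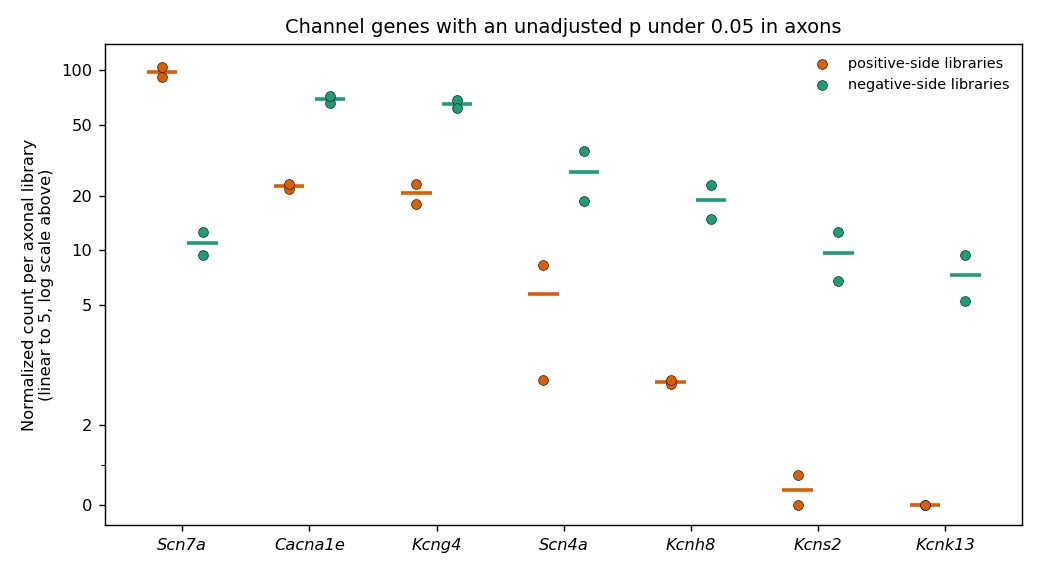
Normalized counts in each recovered axonal library are plotted for 7 channel genes with an unadjusted p under 0.05, positive-side libraries left of negative-side libraries, with bars at the mean of 2 libraries. The axis is linear to 5 and logarithmic above, and the sides of all 7 genes are separate. The genes were picked by their p-value in these same libraries, so this separation is no further support.

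Cacna1h, a T-type calcium channel, Scn3b, a sodium channel beta subunit, and Kcnk3 were the other channel genes with an authors' adjusted p in axons. Cacna1h had 28.7 and 52.4 normalized counts on the positive side, against 54.6 and 63.5 on the negative side (log2 fold change -0.49, adjusted p = 0.605 from DESeq2). Scn3b had 52.9 and 40.7 against 51.5 and 81.0 (-0.46, adjusted p = 0.615 from DESeq2). Kcnk3 had 43.1 and 22.7 against 72.5 and 49.97 (-0.82, adjusted p = 0.390 from DESeq2). The sides were separate in Cacna1h and Kcnk3 and overlapped in Scn3b, and none of the 3 passed the threshold.

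Over all 104, the median axonal log2 fold change was -0.36, against -0.13 over all 23879 identifiers with reads, and 36 lay above 0 and 68 below. Genes of low soma mean lay lower in the whole table (median -0.40 for 8778 identifiers with a soma mean under 1), so the median was also taken within bands of soma mean. For soma means of 10 to 50 it was -0.20 for channels and -0.01 for all genes, and for 50 to 100 it was 0.26 for 5 channels and 0.25 for all genes. For 100 to 300 it was -0.34 for 9 channels and 0.42 for 2072 genes, with 5 of the 9 channels and 23.9% of the genes below 0.

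Among the 48 channels with an axonal mean of at least 10, both positive-side libraries lay above both negative-side ones in 5 (10.4%), against a background of 30.6% of 7783 identifiers with means of 10 to 300. The reverse held for 16 (33.3%), against a background of 18.6%. The 5 included Scn7a, Kcnh1, Kcnj4 and Kcnk9. The 16 included 4 calcium channel genes (Cacna1e, Cacna1h, Cacna1i and Cacna1s), the auxiliary gene Cacna2d2, and the sodium channels Scn4a and Scn11a. Potassium channel genes were also among the 16, such as Kcnd3, Kcng4, Kcnh2, Kcnh8 and Kcnk3.

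By subunit class, axonal log2 fold changes of sodium channel alpha genes had a median of -0.30 (7 genes), with Scn7a at one end and Scn4a at the other, and Scn3a at 0.24 and Scn9a at -0.20 between them. For sodium channel beta genes it was -0.51 (4 genes), with Scn2b at -1.09, Scn4b at -0.55 and Scn3b at -0.46. For calcium channel pore genes it was -0.50 (6 genes), for alpha2delta genes -0.34 (3) and for calcium beta genes -0.11 (4). Cacna1c, with 43.8 and 48.5 normalized counts on the positive side, against 34.7 and 51.3 on the negative side, overlapped between sides, while Cacna1i had 30.2 and 28.2 against 47.3 and 39.2. The auxiliary genes Cacna2d1, with 24.2 and 31.3 against 27.3 and 17.6, and Cacnb3, with 24.9 and 34.4 against 18.9 and 66.2, also overlapped.

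The pore subunits of voltage-gated potassium channels had a median of -0.55, with 10 of 35 above 0 and 25 below, and their auxiliary subunits had -0.40 (9 genes). Two-pore genes had -0.56 (13) and inward rectifiers -0.09 (14). Potassium channels opened by calcium or sodium had 0.18, with 7 of 9 above 0 and 2 below, and Kcnma1 had 20.4 and 13.3 normalized counts on the positive side, against 16.8 and 12.2 on the negative side, which overlap. Centring as above lowers each axonal value by 0.44 and turns the median of these 9 to -0.26, while the other class medians stay below 0. No class had a called gene other than Scn7a, and the differences between classes were not tested.

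**Figure D3:**
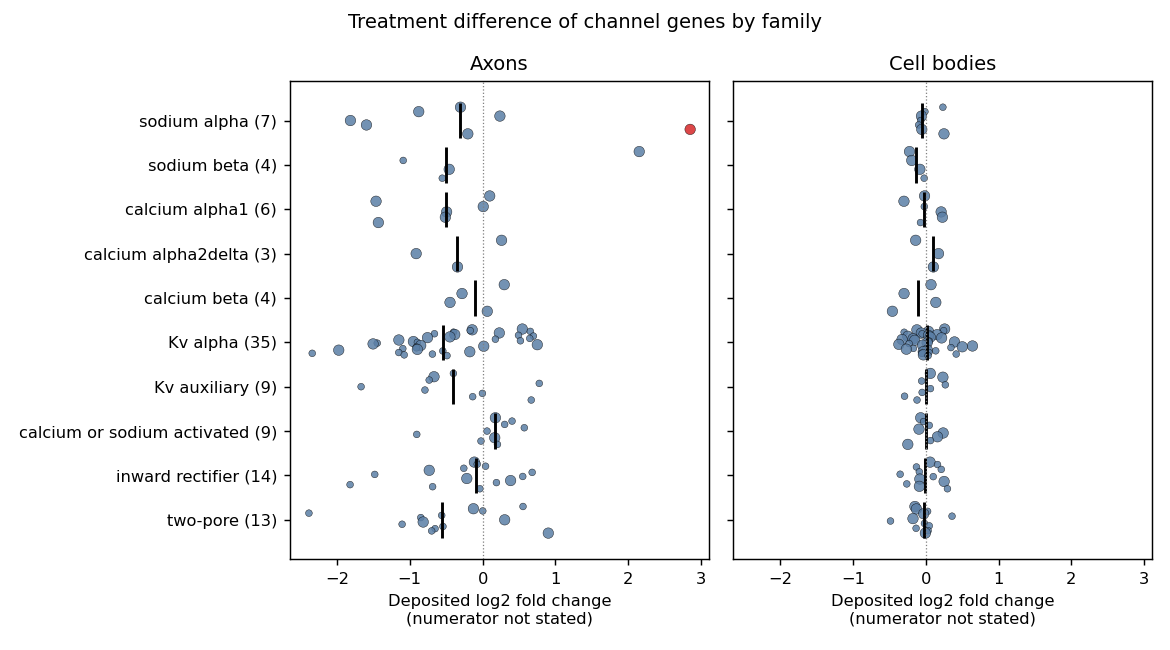
Deposited log2 fold changes of the channel genes are shown by subunit class, axons left and cell bodies right, with 1 point per gene, larger points for means of at least 10 and a bar at each class median. Scn7a, in red, is the 1 gene with an adjusted p under 0.05. Cell body values, as deposited and so drawn toward 0, all lie within -0.48 and 0.64.

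By known place of the protein, the axonal list had 9 of 19 identifiers above 0 and 10 below, with a median of -0.14 on the log2 scale. Its summed normalized counts were 345 and 352 in positive-side axons and 454 and 416 in negative-side axons. The dendritic list had 7 of 24 above 0 and 17 below, a median of -0.35, and sums of 281 and 304 against 454 and 444. The authors' adjusted p was given to 2 of the 19 and to 1 of the 24, and none of these was called, against a background of 304 of 1321 identifiers (23.0%). The other members could not be called. The sums of both lists did not overlap between sides. This was not particular to them, since all 104 channels by the rule summed to 1151 and 1067 in positive-side axons, against 1399 and 1503 in negative-side axons.

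In the dendritic list Kcnj6, a G protein-gated rectifier, had 1.51 and 2.35 normalized counts on the positive side, against 15.8 and 9.45 on the negative side (log2 fold change -1.82, p = 0.0660 unadjusted in the authors' deposited table). Kcnd3 had 15.1 and 2.35 against 26.3 and 21.6. Kcna1, in the axonal list, had 13.6 and 18.8 against 17.9 and 1.35, so that 1 negative-side library alone was low. Kcna6 had 32.5 and 29.7 against 15.8 and 36.5. Kcnj6 and Kcnd3 had separate sides, and Kcna1 and Kcna6 did not.

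The glial list summed to 119 and 131 normalized counts in positive-side axons and 45.2 and 66.2 in negative-side axons, but this was the count of Scn7a. Without it the other 8 identifiers summed to 27.2 and 26.6 against 32.6 and 56.7. Kcnj10 had 11.3 and 8.61 against 17.9 and 4.05, a log2 fold change of -0.11 ± 0.93 (SE), and overlapped between sides. Kcnj16, the partner of Kcnj10 in astrocytes, had none in 3 axonal libraries and 9.45 in 1 negative-side library. Of the 9 glial identifiers 2 lay above 0 and 7 below, with a median of -0.17.

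The non-brain list had 4 of 18 above 0 and 14 below, with a median of -0.62. Among the 21 channels with a soma mean under 1, both negative-side libraries were higher in 7 (33.3%), against a background of 25.9% of 5276 genes, and both positive-side libraries in 1, against 4.32%. Cacna1s had 14.4 and 6.26 normalized counts on the positive side, against 31.5 and 35.1 on the negative side, whereas Scn10a, with 17.4 and 7.83 against 17.9 and 14.9, overlapped.

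The third comparison asks whether channel transcripts of the cell bodies differed after treatment of the axons. No channel gene was called among 98 with an adjusted p from DESeq2, against a background of 0.00% of 18995 identifiers. At an unadjusted p under 0.05 there were 2 identifiers in all (0.0105%) and 0 channels. Log2 fold changes of channels ran from -0.48 for Kcnk3 to 0.64 for Kcnh2, with a median of -0.02. Kcnh2, a repolarizing potassium channel, had 11.5 and 37.0 normalized counts on the positive side, against 10.7 and 9.38 on the negative side, so its value rests on the shallow positive-side library.

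Of the 55 channels with a soma mean of at least 10, the sides were separate in 11 (20%), in either direction, against a background of 15.6% of 10556 identifiers. Between the 2 deep libraries the positive-over-negative log2 ratio had a median of -0.04 and an SD of 0.330 over the 55 channels, and none differed 2-fold or more. Between the 2 shallow libraries it had an SD of 0.568, and 3 channels (Kcnd2, Kcnh2 and Scn2b) differed by at least 2-fold. These rest on few reads, 6 against 14, 11 against 3 and 7 against 16 in that order. The share of all genes that differed so far is not given here.

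The soma libraries differed by depth far more than by side. Both shallow libraries lay above both deep ones in 29 of 55 channels (52.7%), against a background of 32.5% of 10556 identifiers, and below them in 10 (18.2%), against 38.0%. The median shallow-over-deep log2 ratio was 0.48 for channels and -0.07 for all genes. Kcnk9, an acid-sensitive leak channel, had 30.3 and 28.2 normalized counts in the shallow libraries and 6.06 and 7.75 in the deep ones. Cacna1h had 229 and 185 against 62.0 and 48.6, and Cacna1e 175 and 263 against 82.5 and 83.4.

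Other genes ran the opposite way. Scn7a had 20.2 and 15.6 normalized counts in the shallow soma libraries and 66.0 and 75.6 in the deep ones, and Scn3a had 114 and 122 against 196 and 206. Each side held 1 library of each depth, and the part of this difference in the soma comparison was not tested.

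**Figure D4:**
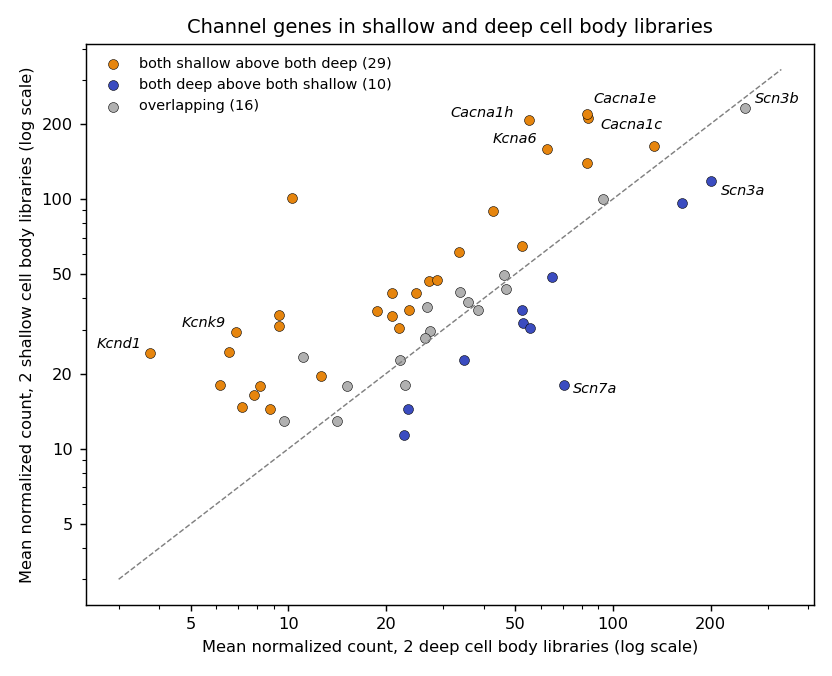
Each point is 1 of 55 channel genes with a soma mean of at least 10, plotted as the mean normalized count of the 2 shallow soma libraries against that of the 2 deep ones on log axes, with the line of equality dashed. Orange points (29) have both shallow libraries above both deep ones, blue points (10) the reverse, and Kcnk9 and Scn7a lie far from the line in opposite directions.

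The last comparison asks whether the treatment difference itself differed between axons and soma. No channel gene of 98 passed an adjusted p of 0.05 in a normal test of the difference between the deposited log2 fold changes, against a background of 0.0326% of 18406 identifiers. The test takes the deposited values, which are drawn toward 0, and their standard errors as they stand. A soma standard error can be small where reads are few (0.121 for Kcnk7, with 1 soma read), which limits the test. Unadjusted, 2 channels had a p under 0.05, against 2.60% of identifiers. For Scn7a the axonal minus soma difference was 2.91 ± 0.84 (SE), with an adjusted p of 0.412 by Benjamini-Hochberg over all 18406 tested in this model. The call of Scn7a in axons and its absence in soma is thus not shown to be a difference between compartments.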

How the data were processed

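RNA of 8 samples in 4 groups of 2 was sequenced. The submitters' processing notes name Trim Galore, TopHat2, SAMtools and DESeq2. For the genome build, the annotation, the read counter and versions nothing is stated in the labels. Per the file headers, the authors deposited, per compartment, the mean normalized count (a signal: counts over size factors), the log2 fold change and its standard error, a Wald score, a p-value and its adjusted value. Deposited fold changes are drawn toward 0: the log2 ratio of recovered reads of Scn7a was 3.15, against 2.85 deposited.

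Since no value per sample is given, the authors' adjusted p under 0.05 was the main test, in place of a count test. Reads per library were recovered for means under 300, where each mean had exactly 1 solution as 4 whole counts times fixed units and 0% of shifted decoys had one; the step and the difference test were tested on simulated data. Size factors were 1.32 and 1.28 for positive-side axons, against 0.952 and 0.740 for negative-side axons. Depth limits precision: 1 read equalled 0.756 to 1.35 normalized counts in axons.

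Named genes were those with an axonal adjusted p, an unadjusted p under 0.05, the 10 largest means per table, the 8 highest and 8 lowest relative levels, and list members with means of at least 10. Genes named beyond this were chosen after their values were seen. The members and lists were chosen with earlier results of these data known. Kcna10, Kcnip2 and Kcnk6 each have a pair of identifiers that may share reads. Values of some channel genes are not reported here, though counts, medians and sums include them. Promoters came from RefSeq for 71 of 104 channels. Python 3.11.15, pandas 2.3.3, scipy 1.17.1 and statsmodels 0.14.6 were used. Alternatives covered the genes adjusted over, centring, minimum means, share denominators and leaving out recovered libraries.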

Additional observations from a re-analysis of the deposited data

How the results depend on the processing

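Calls over all genes depended on the set adjusted over. The axonal count was 304 with the authors' adjusted p, 81 (71 positive and 10 negative) when adjusted over genes whose mean reached 10, and 52 (50 positive and 2 negative) over every gene with a p-value, since more genes then shared the adjustment. Centring fold changes on genes with a soma mean of at least 100 gave 288 calls, 67 positive and 221 negative, against 116 and 188. It raised the axonal channel calls to 2 by adding Cacna1e, and took the compartment differences over all genes to 0, from 6. Scn7a kept an adjusted p under 0.05 under each of these alternatives (0.000655 to 0.0032). The median axonal log2 fold change of channels was -0.50 when taken from recovered reads, which are not drawn toward 0, and the soma median, recomputed in the same way as an alternative chosen after seeing the data, was -0.04. With genes that had any read in both tables, the all-gene median was taken anew. Relative to it the level was -0.41 for the axonal list and -0.17 for the dendritic list, both turned in sign, and 1.01 for the glial list. Leaving out 1 recovered library at a time gave relative levels of 0.0831 to 0.341 for the axonal list, 0.00697 to 0.391 for the dendritic list and 0.621 to 1.23 for the glial list, and a Scn7a log2 ratio of 2.96 to 3.38. The non-brain list gave no relative level, as no member reached a soma mean of 10. Count tests with edgeR or DESeq2 and leaving out labelled replicates were not run. No paired analysis was possible because the tables hold no values per labelled sample. The authors' adjustment covered 5 of the 104 channels in axons. Adjusting over genes with a mean of at least 10 covered 48, and adjusting over every gene with a p-value covered all 104.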

Other observations

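Channel genes named only through RefSeq, and so outside the 104, included 3 with low positive-side counts in axons, singled out after their values were seen. Kcnt1, a sodium-activated potassium channel, had 8.31 and 2.35 normalized counts in positive-side axons and 43.1 and 36.5 in negative-side axons, a log2 fold change of -2.41 ± 0.79 (SE, p = 0.00215 unadjusted in the authors' deposited table), and its soma sides overlapped. Scn8a, the main sodium channel of mature initial segments, had 29.5 and 20.3 against 66.2 and 59.4 (log2 fold change -1.21, p = 0.0462 unadjusted in the authors' deposited table). Kcnu1, a channel known from sperm, had 3.78 and 1.57 against 19.96 and 12.2, while its soma mean was 0.134. None had an adjusted p.

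Promoters of the channels were rich in G and C. The median GC content of 71 channel promoters was 59.6%, with 11 CpG dinucleotides, against 52.0% and 6 over 27457 promoters. For 35 channels with a soma mean of at least 10 these were 65.6% and 20, and for 17 with a soma mean under 1 they were 57.6% and 7. In the lists they were 71.6% and 24 for the axonal list (13 promoters), 65.6% and 14 for the dendritic list (13), 69.6% and 20 for the glial list (5) and 57.2% and 4 for the non-brain list (13).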
